A study of Mus musculus with 12 samples.

Results

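The proteasome genes of mouse T cells were examined in Foxp3-positive cells and in their Foxp3-negative controls. The members were all genes whose symbol starts with Psma, Psmb, Psmc, Psmd or Psme and a digit, pseudogenes left out, which gave 44 of the 22180 genes with a value. They comprise the inducible set of 5 genes (Psmb8, Psmb9, Psmb10, Psme1 and Psme2) and 39 other members. Among the others are Psmc3ip and Psme3ip1, which encode proteins named for binding a proteasome component and are not subunits. Psma4 is not analysed here, because its probes are annotated to more than 1 gene.

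RNA was measured on 12 Affymetrix arrays in 4 groups of 3 replicates, named A to C. All T cells were resting CD4 or CD8 cells of C57BL6-Foxp3-GFP mice, a strain that carries green fluorescent protein (GFP) as a reporter of Foxp3. Foxp3 is the defining transcription factor of regulatory T cells. They were stimulated at 200000 cells per well by 20000 CD11c dendritic cells of BALB/c mice, a strain with foreign tissue antigens. The CD8 Foxp3-positive cells received IL-2 (5 ng/mL), TGF-β (5 ng/mL) and retinoic acid (40 nM) for 4 days and were sorted as GFP-positive, and the CD8 control cells received IL-2 (5 ng/mL) alone for 4 days and were sorted as GFP-negative. The CD4 Foxp3-positive and CD4 control cells were treated in the same 2 ways for 5 days. Foxp3 status, TGF-β and retinoic acid coincide in this design and cannot be told apart, and neither can lineage and length of culture. Wells were pooled before staining and sorting, and the labels do not say whether replicates A to C came from separate animals or cultures, so that p-values cover only the spread among these samples, and that spread may be technical.

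The proteasome degrades proteins tagged with ubiquitin. Its 20S core is a barrel of α rings, which gate the entrance, and β rings, which hold the protease sites of Psmb5, Psmb6 and Psmb7, and its 19S cap binds, unfolds and deubiquitinates substrates. Interferon-γ induces Psmb8, Psmb9 and Psmb10, which replace Psmb5, Psmb6 and Psmb7 in newly built cores (the immunoproteasome), and it also induces Psme1 and Psme2, the subunits of the PA28αβ activator. Lymphocytes hold much immunoproteasome, which favours peptides that fit major histocompatibility complex (MHC) class I molecules.

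Values are RMA expression levels on a log2 scale, and each difference is the first group minus the second on that scale with the standard error (SE) of a limma model over all 12 arrays. A gene was called at an adjusted p under 0.05 (limma, two-sided, Benjamini-Hochberg over all 22180 genes). The labels held for the defining markers. Foxp3 averaged 12.48 ± 0.05 in CD8 Foxp3-positive cells against 5.66 ± 0.59 in CD8 controls (SD, n = 3 each). Its mean was 12.44 ± 0.05 for CD4 Foxp3-positive arrays and 5.76 ± 0.29 for CD4 control arrays (SD, n = 3 each). Cd8b1 averaged 11.97 and 11.86 in the CD8 groups, and 6.17 on CD4 Foxp3-positive arrays against 7.72 in CD4 controls. Cd4 averaged 5.17 and 5.36 in the CD8 groups, and 11.92 and 12.31 in the CD4 groups. Arrays of a group correlated at r of 0.992 to 0.994 across genes, which are not independent replicates. CD8 control replicate C stood apart from replicates A and B of its group, with Foxp3 at 6.33 against 5.41 and 5.23. Calls of members that change without it are given beside the results, or as a count where many members did so. Uncalled differences that move by over 1.5 times without it are not all given.

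The members differed little between the groups. The range of the 4 group means had a median of 0.25 over the 44 members and did not exceed 0.55, a value reached by Psma1. The median over all genes was 0.32, and it was 0.43 over the genes at or above the median level of 5.60. The pooled SD within groups had a median of 0.12 over the members and 0.15 over all genes. For all 44 members the 95% interval of the difference lay within a 2-fold change in either direction in each comparison, which was true of 92.5% of all genes for Foxp3-positive against control CD8 cells and of 91.2% for CD4 cells. CD8 control was the highest of the 4 groups for 30 members, CD4 control for 9, CD8 Foxp3-positive for 3 and CD4 Foxp3-positive for 2. Psma5, Psma8 (a testis form of an α subunit) and Psmb11 (the thymus form of Psmb5) averaged below 5.60, in the dimmer part of the array, and the other 41 members averaged above it.

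The genes of the inducible set did not all share 1 direction. Psmb8, Psmb9 and Psme2 averaged below control in both lineages and Psme1 above it in both, while Psmb10 differed in direction by lineage. In CD8 cells none of the 5 genes of the set was called, and in CD4 cells 1 fell, Psmb9. The median difference of the set was -0.12 in CD8 cells and -0.19 in CD4 cells, against -0.02 and 0.00 over all genes. Calls over all genes came to 9.39% higher and 10.6% lower in CD8 cells, and to 12.1% higher and 10.4% lower in CD4 cells.

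Psmb9, the inducible counterpart of Psmb6, had levels of 9.42, 9.22 and 9.66 on CD4 Foxp3-positive arrays, against 10.02, 9.77 and 9.80 in CD4 controls. All 3 Foxp3-positive arrays lay below all 3 control arrays, though the nearest ones differed by little. It fell by 0.43 (SE 0.13, 1.35-fold lower, limma adjusted p = 0.0306). In CD8 Foxp3-positive cells its levels were 9.14, 9.54 and 9.43, against 9.56, 9.57 and 9.70 in CD8 controls. The groups again did not overlap, but the difference of -0.24 (SE 0.13) was not called (limma adjusted p = 0.26). The CD4 call was lost in 5 of 19 alternative settings, with adjusted p from 0.0106 to 0.133, among them those without CD4 Foxp3-positive replicate A or B or without CD4 control replicate A or C.

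Psmb8, the inducible counterpart of Psmb5, had levels of 10.88, 10.83 and 10.92 on CD4 Foxp3-positive arrays, against 11.12, 11.07 and 10.999 in CD4 controls. These groups did not overlap, with a difference of -0.19 (SE 0.08, limma adjusted p = 0.122). In CD8 Foxp3-positive cells it had 10.88, 11.05 and 10.91, against 11.08, 11.09 and 11.03 in CD8 controls, a difference of -0.12 (SE 0.08). A single CD8 Foxp3-positive array lay within the range of the controls, and neither difference was called.

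Psmb10, the inducible counterpart of Psmb7, went in opposite directions in the lineages. It had 9.82, 10.09 and 10.02 in CD8 Foxp3-positive cells against 9.67, 9.83 and 9.64 in CD8 controls, a difference of 0.27 (SE 0.11, limma adjusted p = 0.116). It had 9.79, 9.75 and 9.96 on CD4 Foxp3-positive arrays against 10.22, 10.09 and 9.92 in CD4 controls, a difference of -0.24 (SE 0.11, limma adjusted p = 0.134). In both lineages 1 array crossed into the other group. The CD8 effect exceeded the CD4 effect by 0.51 (SE 0.15, limma adjusted p = 0.0448), which made Psmb10 the 1 gene of the set called in the test of that difference, where 6.01% of all genes were higher and 7.48% lower. The call held in 8 of 18 alternative settings, with adjusted p between 0.0132 and 0.103, and was lost without each of 8 of the 12 arrays.

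Psme1 and Psme2, which form an activator ring together, did not move together. Psme1 had 10.98, 11.06 and 10.95 in CD8 Foxp3-positive cells against 10.75, 10.82 and 10.74 in CD8 controls, with no overlap and a difference of 0.22 (SE 0.07, limma adjusted p = 0.0512). It had 11.06, 11.03 and 11.05 on CD4 Foxp3-positive arrays against 10.96, 10.96 and 10.94 in CD4 controls, a difference of 0.09 (SE 0.07). Psme1 was thus above its control range in both lineages, while neither difference was called. The CD8 difference was called in 3 alternative settings, in each as a rise.

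Psme2 had 7.13, 6.90 and 7.10 in CD8 Foxp3-positive cells against 7.17, 7.20 and 7.32 in CD8 controls, a difference of -0.19 (SE 0.12). It had 7.003, 7.11 and 7.40 on CD4 Foxp3-positive arrays against 7.12, 7.46 and 7.30 in CD4 controls, a difference of -0.12 (SE 0.12). The CD8 groups did not overlap, the CD4 groups did, and neither difference was called.

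**Figure D1:**
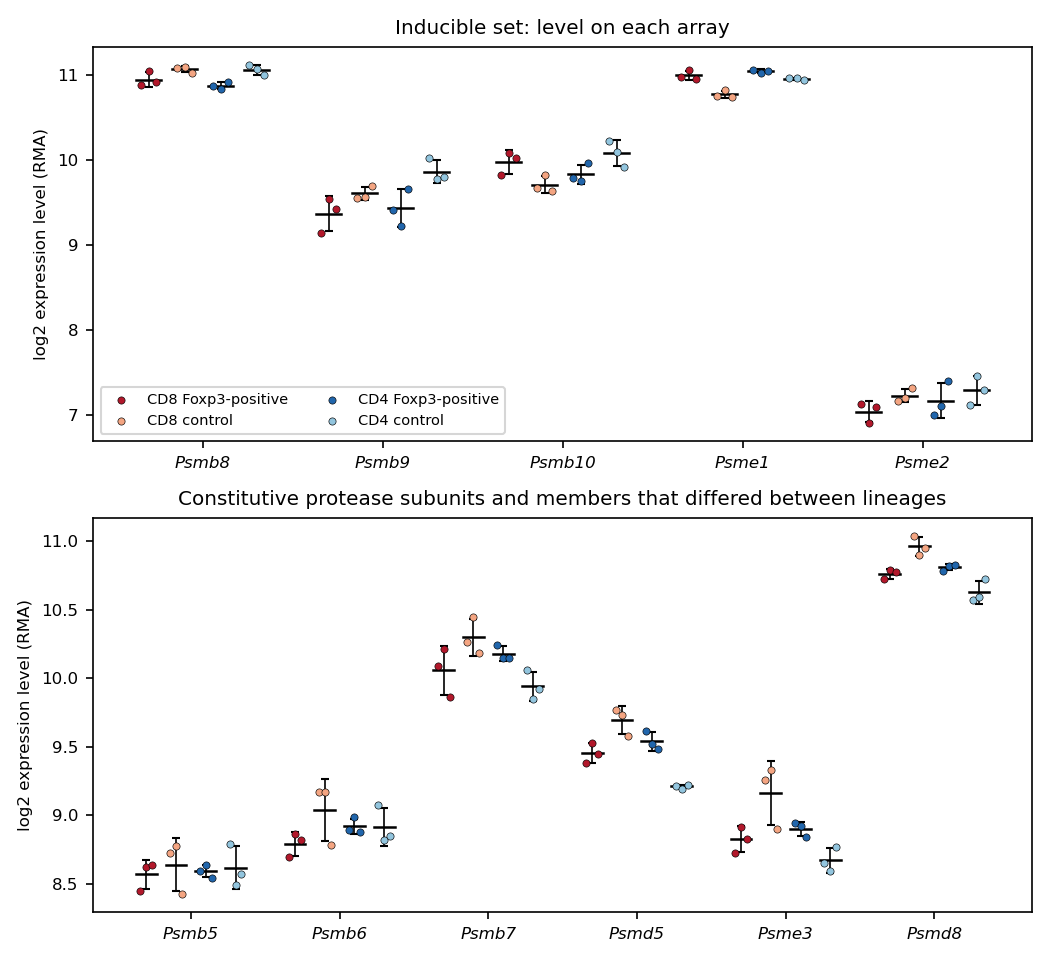
Log2 expression level (vertical axis) of the 5 inducible members (upper panel) and of 6 other members (lower panel), with 1 point per array, a bar at the group mean and whiskers of 1 SD (n = 3), in the order CD8 Foxp3-positive, CD8 control, CD4 Foxp3-positive, CD4 control. Psmb10 lies above its control in CD8 cells and below it in CD4 cells, while Psmb7, Psmd5, Psme3 and Psmd8 lie below their control in CD8 cells and above it in CD4 cells.

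The protease subunits that the inducible set replaces were set beside it. Psmb7 had 10.09, 10.22 and 9.87 in CD8 Foxp3-positive cells against 10.26, 10.45 and 10.19 in CD8 controls, a difference of -0.24 (SE 0.11). It had 10.24, 10.15 and 10.15 on CD4 Foxp3-positive arrays against 10.06, 9.85 and 9.92 in CD4 controls, a difference of 0.24 (SE 0.11). These values run opposite to those of Psmb10 in both lineages. The CD8 effect of Psmb7 was below its CD4 effect by -0.48 (SE 0.15), which missed the threshold (limma adjusted p = 0.0583) and passed it in 6 of 18 alternative settings.

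Psmb6 had 8.69, 8.86 and 8.82 in CD8 Foxp3-positive cells against 9.17, 9.17 and 8.78 in CD8 controls. Only CD8 control replicate C lay within the range of the Foxp3-positive arrays, and the difference of -0.25 (SE 0.12, limma adjusted p = 0.171) was near the -0.24 of Psmb9. Without that control array the Psmb6 difference was -0.38 and was called (limma adjusted p = 0.0192), as it also was with array weights. In CD4 cells the Psmb6 difference was 0.00 (SE 0.12), beside the fall of Psmb9 by 0.43. Psmb5 differed by -0.07 (SE 0.11) in CD8 cells and by -0.03 (SE 0.11) in CD4 cells, beside -0.12 and -0.19 for Psmb8. Its levels were 8.45, 8.63 and 8.64 in CD8 Foxp3-positive cells against 8.73, 8.78 and 8.42 in CD8 controls. CD8 control replicate C thus lay below all Foxp3-positive arrays and replicates A and B above them, so the small CD8 difference depends on replicate C. On CD4 Foxp3-positive arrays Psmb5 had 8.59, 8.64 and 8.55, against 8.79, 8.49 and 8.57 in CD4 controls. With all 12 arrays none of the 3 constitutive protease subunits was called in either lineage. No test compared the members of a pair with each other, because levels of different probes share no scale.

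Psma1, an α subunit of the 20S core, was the member called in both lineages. It had 9.65, 9.69 and 9.40 in CD8 Foxp3-positive cells against 9.95, 9.98 and 9.83 in CD8 controls. In CD4 Foxp3-positive cells it had 9.36, 9.33 and 9.41 against 9.72, 9.75 and 9.69 in CD4 controls. The groups did not overlap in either lineage. Psma1 fell by 0.34 (SE 0.09, limma adjusted p = 0.018) in CD8 cells and by 0.36 (SE 0.09, limma adjusted p = 0.013) in CD4 cells, and the 2 effects differed by 0.02 (95% interval -0.27 to 0.30). The CD4 call held in all 19 alternative settings and the CD8 call in 15 of 19, with adjusted p up to 0.0823. The other 6 α genes differed by -0.22 to 0.25 in CD8 cells and by -0.20 to -0.03 in CD4 cells, and none was called. The 2 above 0 in CD8 cells were Psma5 and Psma8, which averaged below 5.60, in the dimmer part of the array. The 4 β genes without a protease site differed by -0.12 to -0.01 in CD8 cells and by -0.13 to 0.01 in CD4 cells, and none was called.

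In CD8 cells most members outside the inducible set lay below control, in the 20S core as in the 19S cap, though few were called. Of the 39 members outside the inducible set 4 fell and none rose (9.39% of all genes rose and 10.6% fell), and 34 of 39 had a difference below 0, against 53.3% of all genes. Their median difference was -0.20, against -0.02 over all genes. All members but Psma5, Psma8 and Psmb11 lie above the median level. Of the 11090 genes at or above that level 1817 rose and 2084 fell, larger shares than over all genes, and 54.7% were below 0. All 6 ATPases of the 19S base, all 3 base genes without ATPase and all 8 lid genes were below 0. So were 5 of 7 α genes, all 4 β genes without a protease site and all 3 constitutive protease subunits. The 2 α genes above 0 were the dim Psma5 and Psma8, and 2 of the 3 chaperones of the 19S base were above 0. In bulk samples such as these, fewer cells of a type and less RNA per cell cannot be told apart.

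Psmc6, an ATPase of the ring that unfolds substrates, had 9.81, 9.87 and 9.64 in CD8 Foxp3-positive cells against 10.24, 10.17 and 10.21 in CD8 controls. The groups lay apart by more than the spread of either, and Psmc6 fell by 0.43 (SE 0.09, 1.35-fold lower, limma adjusted p = 0.00263), a call held in all 19 alternative settings. Its difference in CD4 cells was -0.13 (SE 0.09), and the test of the 2 effects against each other was not called (limma adjusted p = 0.127). The other 5 ATPases differed by -0.22 to -0.13 in CD8 cells.

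Psmd1, a scaffold of the base, had 9.60, 9.76 and 9.40 in CD8 Foxp3-positive cells against 10.21, 10.21 and 9.79 in CD8 controls. It fell by 0.48 (SE 0.13, 1.39-fold lower, limma adjusted p = 0.0211), and the groups did not overlap, with the highest Foxp3-positive array close to CD8 control replicate C. In CD4 cells it differed by -0.02 (SE 0.13), with overlapping groups. Psmd2 and Psmd4, another scaffold and a ubiquitin receptor of the base, differed by -0.20 and -0.15 in CD8 cells. The Psmd1 call was lost in 5 of 19 alternative settings, with adjusted p up to 0.0962.

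Psmc3ip, which binds a 19S ATPase by its name and is known for its role in meiotic recombination, had 6.79, 6.68 and 6.88 in CD8 Foxp3-positive cells against 7.23, 7.22 and 7.03 in CD8 controls. It fell by 0.38 (SE 0.10, limma adjusted p = 0.0129), without overlap between the groups, and the call held in 16 of 19 alternative settings (adjusted p up to 0.0594), being lost without CD8 Foxp3-positive replicate B and without CD8 control replicate A or B. In CD4 cells the difference was -0.04 (SE 0.10). Psme3ip1 differed by 0.13 in CD8 cells and 0.19 in CD4 cells and was called in neither.

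The CD8 result depended on single arrays, CD8 control replicates B and C most. The median difference of the 39 others, -0.20 with all arrays, was -0.13 without CD8 control replicate B, -0.16 without replicate A and -0.26 without replicate C. The median level of the 20 genes of the 19S cap and its assembly chaperones was 9.46, 9.53 and 9.38 on CD8 Foxp3-positive arrays A to C, against 9.76, 9.79 and 9.47 on CD8 control arrays A to C. Replicate C of the controls lay within the Foxp3-positive range, while A and B lay above it. Without that array 17 of the 44 members fell in CD8 cells and none rose, with 38 of 44 below 0, where 11.3% of all genes fell. Psmd3, a lid subunit, then differed by -0.42, Psmc4 by -0.39, Psmc5 by -0.36, Psmc2 by -0.35 and Psmc1 by -0.32, all ATPases but Psmd3, and all 5 were called, each more than 1.5 times its difference with all arrays. Without CD8 control replicate A or without replicate B 1 member fell, Psmc6, and without CD8 Foxp3-positive replicate C 2 fell. Over all genes 7.73%, 8.66% and 8.18% fell in these settings, in that order.

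Genes of proliferation were also lower in CD8 Foxp3-positive cells. Of 11 measured replication and mitosis genes all fell in CD8 cells, among them Rrm2 (a subunit of ribonucleotide reductase) by 0.85, Mcm3 by 0.68 and Mcm2 by 0.61, both helicase subunits, while in CD4 cells 1 rose, Mki67, by 0.38. Their median level was 10.57, 10.57 and 10.30 on the CD8 Foxp3-positive arrays, against 11.09, 11.15 and 10.84 on the CD8 control arrays, so that replicate C was again the lowest control. Over all genes 10.6% fell in CD8 cells and 12.1% rose in CD4 cells. The part of proliferation in the proteasome result was not tested.

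**Figure D2:**
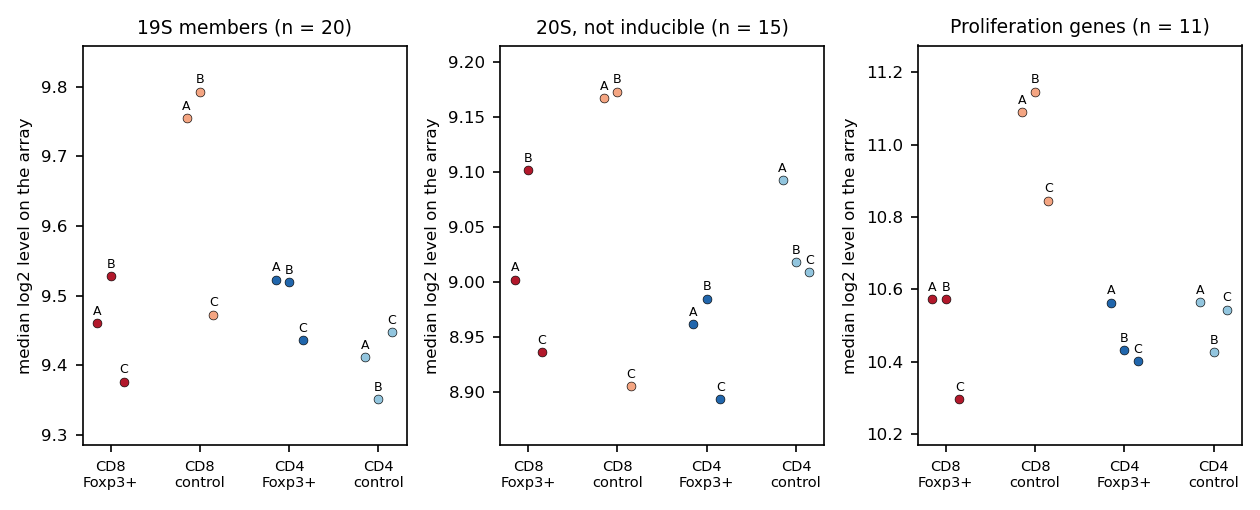
Median log2 level per array (vertical axis) of the 20 genes of the 19S cap and its chaperones, the 15 genes of the 20S core outside the inducible set, and 11 proliferation genes, with 1 point per array labelled by replicate and the 4 groups along the horizontal axis (Foxp3+ stands for Foxp3-positive). CD8 control replicates A and B lie above all other arrays in each panel, and CD8 control replicate C lies at 9.47 in the 19S panel, within the range of the CD8 Foxp3-positive arrays.

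In CD4 cells the members outside the inducible set were spread around 0. Besides the fall of Psma1 and Psmb9, 1 member rose, Psmd5, a chaperone that assists the assembly of the 19S base, where 12.1% of all genes rose and 10.4% fell. The 39 others had a median difference of -0.03, with 23 below 0 (49.4% of all genes were), and the 8 lid genes differed by -0.12 to 0.21. Among the 11090 genes at or above the median level 2287 rose and 1759 fell, and 44.5% were below 0. Psmd5 had 9.62, 9.52 and 9.48 on CD4 Foxp3-positive arrays against 9.22, 9.20 and 9.22 in CD4 controls. It rose by 0.33 (SE 0.08, 1.26-fold, limma adjusted p = 0.0122), well outside the narrow range of the controls, and the call held in 18 of 19 alternative settings. Psme4, which forms the PA200 activator, differed by -0.26 (SE 0.09, limma adjusted p = 0.0632) in CD4 cells and by -0.10 (SE 0.09) in CD8 cells.

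Arrays of the compared groups failed to overlap for 12 of the 44 members in CD8 cells, 1 higher and 11 lower, where 15.5% of all genes were higher and 18% lower. In CD4 cells this held for 9 higher and 12 lower members, where 20.2% of all genes were higher and 17.6% lower. Both counts of members include many differences that were not called. Among the 11090 genes at or above the median level 2665 were higher and 3131 lower without overlap in CD8 cells. In CD4 cells 3585 of those genes were higher and 2681 lower.

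The effect of Foxp3-positive status differed between the lineages for 4 members, Psmb10 (above) and 3 members whose CD8 effect was below their CD4 effect. Beside 6.01% of all genes higher and 7.48% lower in this test, 4 of 44 is not more than the background. Among the 11090 genes at or above the median level 1091 were higher and 1486 lower. Psmd5 had 9.38, 9.53 and 9.45 in CD8 Foxp3-positive cells against 9.77, 9.73 and 9.58 in CD8 controls, a difference of -0.24 (SE 0.08), opposite to its rise in CD4 cells. The effects differed by -0.57 (SE 0.12, limma adjusted p = 0.00643), and this call held in all 18 alternative settings that give this comparison.

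Psme3, which forms the nuclear PA28γ activator, had 8.73, 8.92 and 8.83 in CD8 Foxp3-positive cells against 9.26, 9.33 and 8.90 in CD8 controls. It had 8.94, 8.92 and 8.84 on CD4 Foxp3-positive arrays against 8.65, 8.59 and 8.77 in CD4 controls. CD8 control replicate C overlapped the CD8 Foxp3-positive arrays, and the CD4 groups did not overlap. The effects of -0.34 and 0.23 (SE 0.11 each) were not called within a lineage, and they differed by -0.57 (SE 0.16, limma adjusted p = 0.0327), a call held in 10 of 18 alternative settings. Without CD8 control replicate C the CD8 effect was -0.47 and was called (limma adjusted p = 0.00385).

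Psmd8, a lid subunit, had 10.72, 10.79 and 10.77 in CD8 Foxp3-positive cells against 11.04, 10.90 and 10.95 in CD8 controls. It had 10.79, 10.82 and 10.82 on CD4 Foxp3-positive arrays against 10.57, 10.59 and 10.72 in CD4 controls. Neither pair of groups overlapped. Its effects of -0.20 and 0.18 differed by -0.38 (SE 0.11, limma adjusted p = 0.0405), a call held in 8 of 18 alternative settings. All 8 lid genes had a CD8 effect below their CD4 effect, by -0.43 to -0.07, where 51.9% of all genes did, and Psmd8 was the 1 of them called. Without CD8 control replicate C 7 members were called in this direction, Psmb7 among them, and Psmb10 was not called. In that setting 5.97% of all genes were higher and 8.26% lower.

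**Figure D3:**
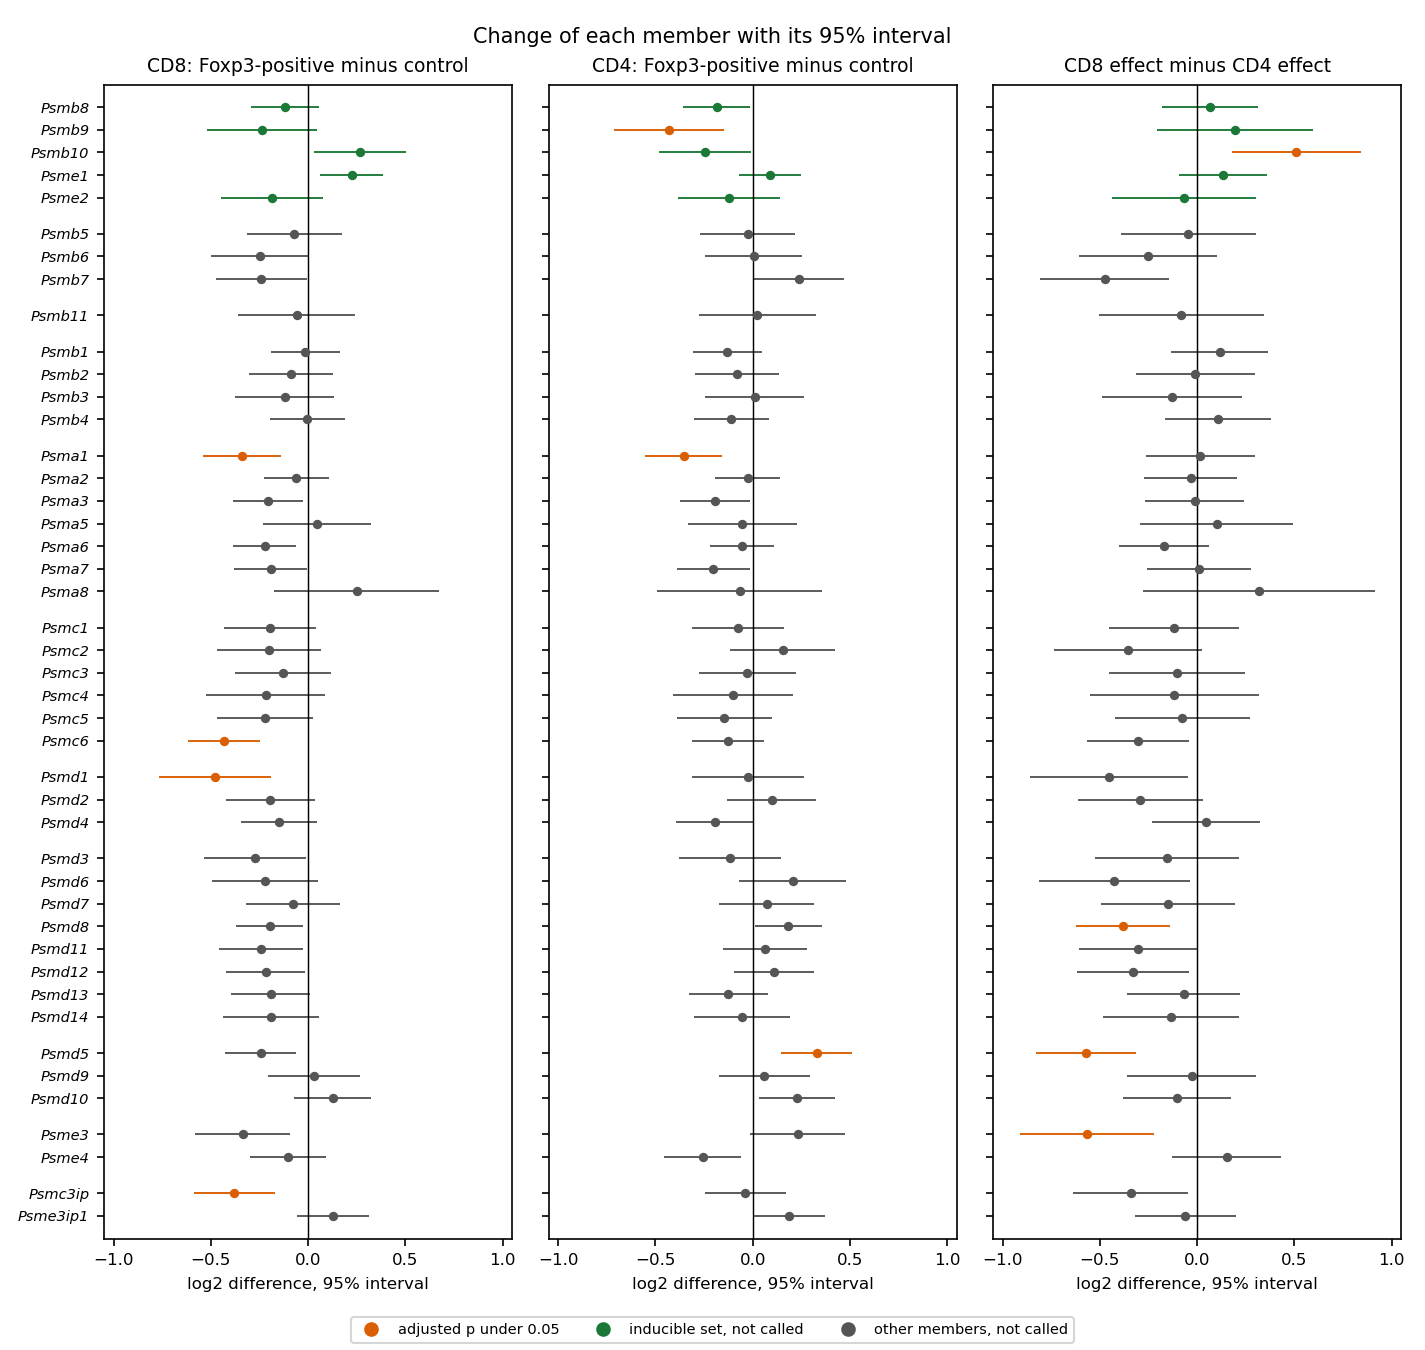
Log2 difference of each of the 44 members with its 95% interval (horizontal axis) for Foxp3-positive minus control in CD8 cells, the same in CD4 cells, and the CD8 effect minus the CD4 effect, with members grouped by role from the inducible set downwards and called members in orange. In CD8 cells 37 of 44 points lie left of 0, and in CD4 cells 27 of 44 do.

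Between the Foxp3-positive cells of the 2 lineages no member passed the test. None of the 44 was called for CD8 Foxp3-positive against CD4 Foxp3-positive cells (limma, adjusted p), 1 had an unadjusted p under 0.05, and their differences lay between -0.13 and 0.21. Over all genes 2.41% were higher and 2.3% lower in this comparison. The 95% intervals exclude a 2-fold change for all 44 members and do not exclude smaller ones.

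The control cells differed more, among the members as over all genes. CD8 controls were above CD4 controls for 5 members and below for 1, Psmb10, where 12.1% of all genes were higher and 8.76% lower. Among the 11090 genes at or above the median level 2482 were higher and 1553 lower. The higher members were Psme3 by 0.49 (SE 0.11), Psmd5 by 0.48 (SE 0.08), Psmc3ip by 0.40 (SE 0.10), Psmb7 by 0.36 (SE 0.11) and Psmd8 by 0.33 (SE 0.08). Psmb10 was lower by 0.37 in CD8 controls (difference -0.37, SE 0.11, limma adjusted p = 0.0285). The calls of Psme3, Psmd5, Psmc3ip and Psmd8 held in all 19 alternative settings, while that of Psmb7 was lost in 5 (adjusted p up to 0.130) and that of Psmb10 in 6 (up to 0.115). The median of the 39 others was 0.13 and that of the inducible set -0.18, against 0.00 over all genes. Without CD8 control replicate C 12 members were higher and none lower, where 12.2% of all genes were higher and 8.44% lower. These comparisons use the same control arrays as those above, so their values are not independent of them.

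Class I antigen processing, which takes up the peptides that the proteasome cuts, was lower in CD4 Foxp3-positive cells. Of 11 measured genes 8 fell in CD4 cells and none rose, while in CD8 cells 2 rose and 1 fell. Over all genes 12.1% rose and 10.4% fell in CD4 cells, and 9.39% rose and 10.6% fell in CD8 cells. Tap1, a chain of the transporter that moves proteasome products into the endoplasmic reticulum, had 10.28, 9.91 and 10.50 on CD4 Foxp3-positive arrays against 11.18, 11.15 and 11.03 in CD4 controls. It fell by 0.89 (SE 0.13, limma adjusted p = 0.000296) in CD4 cells, in the direction of Psmb9, and differed by -0.35 (SE 0.13, limma adjusted p = 0.0958) in CD8 cells. Its partner Tap2 fell by 0.69 (SE 0.09) in CD4 cells and by 0.30 (SE 0.09) in CD8 cells. Nlrc5, the transactivator of class I genes, fell by 0.77 (SE 0.10) and H2-K1, a class I heavy chain, by 0.74 (SE 0.11) in CD4 cells, while their differences of -0.21 and -0.24 in CD8 cells were not called. The peptide editors Tapbp and Tapbpl rose in CD8 cells by 0.40 (SE 0.09) and 0.70 (SE 0.12), and in CD4 cells Tapbp fell by 0.33 (SE 0.09).

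Psmb9, Tap1, Psmb8 and Tap2 are consecutive protein-coding genes on chromosome 17 in the RefSeq annotation of GRCm38.p6. The starts of Psmb9 (minus strand) and Tap1 (plus strand) lie 225 bases apart, and the promoter windows of 300 bases around them share 275 bases. The Psmb9 window is printed because both genes fell in CD4 cells and read from it in opposite directions. It runs 5′ to 3′ on the minus strand at chr17:34187281-34187580 (RefSeq, GRCm38.p6), and the capitals mark the bases between the 2 starts. The windows of Psmb8, at chr17:34197945-34198244 on the plus strand, and of Psme1, at chr14:55578244-55578543 on the plus strand, are printed for the motif matches described after them, which are in capitals.
Psmb9: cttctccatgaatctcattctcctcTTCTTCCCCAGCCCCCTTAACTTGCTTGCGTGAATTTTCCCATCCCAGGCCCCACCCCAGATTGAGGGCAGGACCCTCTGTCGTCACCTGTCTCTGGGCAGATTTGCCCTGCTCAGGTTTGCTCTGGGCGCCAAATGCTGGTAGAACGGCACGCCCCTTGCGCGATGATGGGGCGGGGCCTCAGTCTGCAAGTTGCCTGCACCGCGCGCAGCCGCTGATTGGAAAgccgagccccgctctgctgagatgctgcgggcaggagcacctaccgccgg
Psmb8: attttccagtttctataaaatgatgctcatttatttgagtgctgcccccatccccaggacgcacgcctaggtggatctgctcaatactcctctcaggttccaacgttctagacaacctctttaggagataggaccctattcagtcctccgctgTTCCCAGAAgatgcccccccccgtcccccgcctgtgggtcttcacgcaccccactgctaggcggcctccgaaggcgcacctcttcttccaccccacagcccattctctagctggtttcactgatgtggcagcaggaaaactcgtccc
Psme1: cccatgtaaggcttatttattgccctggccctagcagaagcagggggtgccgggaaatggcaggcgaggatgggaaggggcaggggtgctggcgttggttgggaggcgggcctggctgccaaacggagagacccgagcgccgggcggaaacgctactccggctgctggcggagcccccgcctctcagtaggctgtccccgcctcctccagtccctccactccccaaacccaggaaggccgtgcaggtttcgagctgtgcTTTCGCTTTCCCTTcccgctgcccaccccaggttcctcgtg

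Promoter windows (250 bases before to 50 after a start) were given for 37 of the 44 members. Short patterns were searched on both strands. A member counts if any of its windows matches (41 windows for the 37 members), while the share of all is taken per window. The 2 shares are thus unlike measures, and that of the members can be the larger for this reason. The interferon regulatory factor core AANNGAAA stood in the windows of 11 of these 37 members (29.7%), against 23.9% of all windows. The window of Psme1 holds 2 overlapping matches, in a run of bases just after the start, and the windows of Psmb8 and Psmb9 hold none. Psmb10 and Psme2 are not among the 11, and a member can be absent from them for want of a window. The STAT dimer pattern TTCNNNGAA stood in the windows of Psmb8 and Psmd2 (5.41%, against 8.3%). The antioxidant response core TGACNNNGC stood in 6 members (16.2%, against 12.4%), Psmb5, Psmb6, Psmc6, Psmd12, Psmd9 and Psme4. A match describes letters and is no evidence of binding, and a window without one says nothing of sites elsewhere.

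Interferon-γ itself, the known inducer of the set, was lower in both lineages. Ifng had 4.47, 4.55 and 4.10 in CD8 Foxp3-positive cells against 6.54, 6.81 and 6.55 in CD8 controls, and fell by 2.26 (SE 0.25). It had 4.81, 4.20 and 4.41 on CD4 Foxp3-positive arrays against 8.66, 8.29 and 7.46 in CD4 controls, and fell by 3.66 (SE 0.25). All these Foxp3-positive levels of Ifng lay below 5.60, in the dimmer part of the array, which limits the size of fall that can be seen. Irf1, a factor that interferon-γ induces and that acts on class I genes, rose by 0.72 (SE 0.13) in CD8 cells and fell by 0.56 (SE 0.13) in CD4 cells. Psmb10 had the same directions, while Psmb8, Psmb9 and Psme2 averaged below control and Psme1 above it in both lineages. Ifngr2, a chain of the interferon-γ receptor, rose by 2.29 (SE 0.14) in CD8 cells and by 1.26 (SE 0.14) in CD4 cells. Socs1, an inhibitor of the receptor's kinases, rose by 0.89 (SE 0.15) in CD8 cells and differed by -0.38 (SE 0.15) in CD4 cells. Stat2, a carrier of type I interferon signals, fell by 1.495 (SE 0.14) in CD4 cells and differed by 0.35 (SE 0.14) in CD8 cells, or by 0.55 without CD8 control replicate C, where it was called (limma adjusted p = 0.00103). While 9.39% of all genes rose and 10.6% fell in CD8 cells, the shares in CD4 cells were 12.1% and 10.4%. Of 11 measured interferon signalling genes 6 rose and 1 fell in CD8 cells, and 4 rose and 5 fell in CD4 cells. Whether the inducible members follow these genes was not tested.

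**Figure D4:**
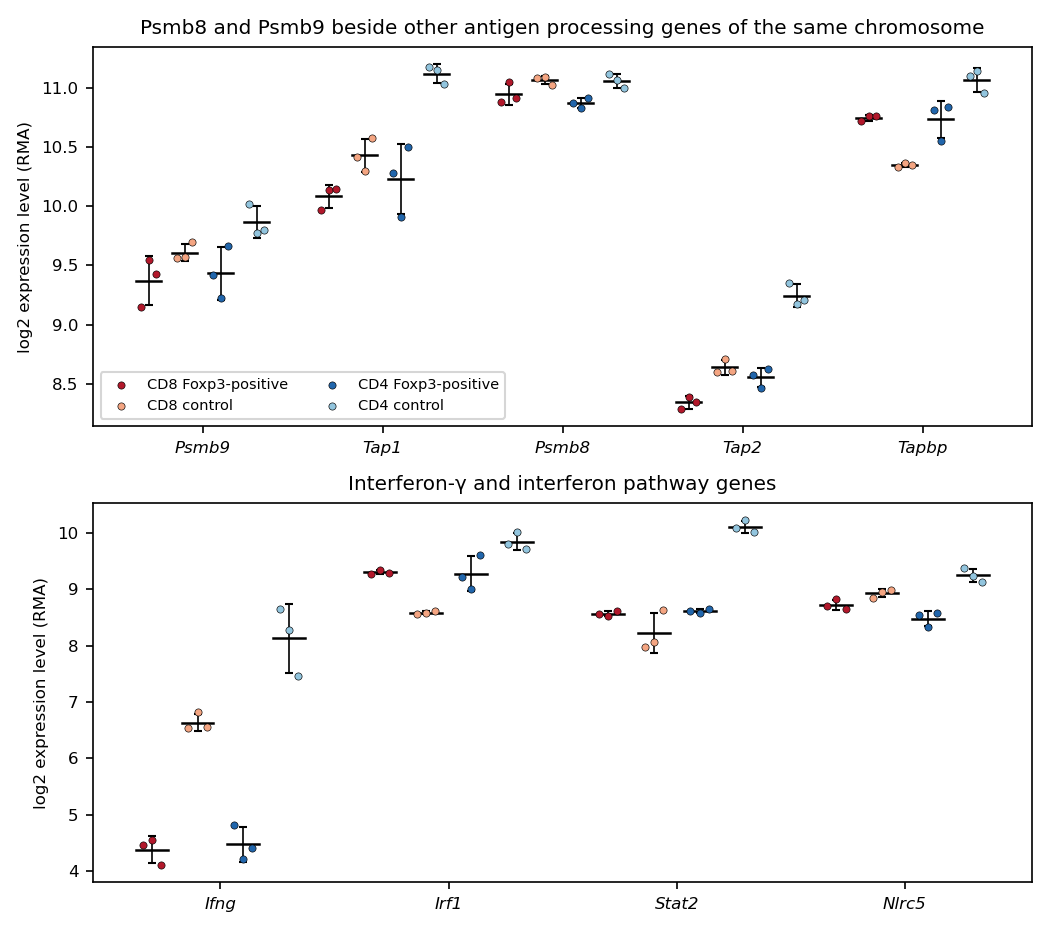
Log2 expression level (vertical axis) of Psmb9, Tap1, Psmb8, Tap2 and Tapbp, all on chromosome 17 (upper panel), and of Ifng, Irf1, Stat2 and Nlrc5 (lower panel), with 1 point per array, a bar at the group mean and whiskers of 1 SD (n = 3). Tap1 and Tap2 lie lower in CD4 Foxp3-positive cells than in CD4 controls with a wider gap than Psmb9 and Psmb8, and Irf1 lies above its control in CD8 cells and below it in CD4 cells.

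Genes that build and regulate the proteasome without being members were read from a list of 14 measured genes. In CD8 cells 5 fell and 1 rose, and in CD4 cells 4 rose and 2 fell. Over all genes 10.6% fell and 9.39% rose in CD8 cells, and 12.1% rose and 10.4% fell in CD4 cells. Uchl5 and Usp14, deubiquitinases of the 19S cap outside the members, fell in CD8 cells by 0.69 (SE 0.13) and 0.57 (SE 0.10). They differed by -0.33 and -0.20 in CD4 cells, where neither was called. The 20S assembly chaperones Psmg1 and Psmg2 fell by 0.44 (SE 0.12) and 0.39 (SE 0.09) in CD8 cells, while in CD4 cells Psmg2 rose by 0.32 (SE 0.09) and Psmg1 differed by 0.33 (SE 0.12, limma adjusted p = 0.0731). Both had a CD8 effect below their CD4 effect, by -0.77 (SE 0.17) and -0.71 (SE 0.13), the direction seen for Psmd5, the chaperone of the base. Pomp, the maturation factor of the 20S core, fell by 0.40 (SE 0.09) in CD4 cells and differed by -0.21 (SE 0.09) in CD8 cells. Psmg4, another 20S chaperone, rose by 0.44 (SE 0.09) in CD4 cells. Nfe2l2, a stress factor that can act on proteasome genes, rose by 0.42 (SE 0.09) in CD8 cells and by 0.56 (SE 0.09) in CD4 cells. Nfe2l1, another factor of the list, lay the other way in both lineages. It averaged 7.66 against 7.86 in CD8 controls, and 7.76 against 8.14 in CD4 controls. Averaged over all its clusters, Psmg2 differed by 0.072 in CD4 cells and its effects in the lineages by -0.38, and neither was called. Of the p97 cofactors, Ufd1 rose by 0.30 (SE 0.08) in CD8 cells (0.26 and not called without CD8 control replicate C) and by 0.25 (SE 0.08) in CD4 cells, and Nploc4 fell by 0.35 (SE 0.09) in CD4 cells. Ubiquitin genes were not analysed here.

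Summed levels of other cells' markers overlapped between the compared groups for some lists and not for others. The counts below stand beside 9.39% of all genes that rose and 10.6% that fell in CD8 cells. In CD4 cells these shares were 12.1% and 10.4%. Of 18 dendritic cell markers 2 rose and 3 fell in CD8 cells, and 3 rose and 2 fell in CD4 cells. Their summed linear level was 2824 to 3162 in CD8 Foxp3-positive cells against 2904 to 3424 in CD8 controls, and for the CD4 arrays it was 2762 to 3787 with Foxp3 and 2989 to 3497 in controls. Itgax, Batf3 and Cd80 fell in CD8 cells, while in CD4 cells Cd80 rose and Batf3 and H2-Ab1 fell. Batf3 averaged 5.76 against 6.72 in CD8 controls, and 5.56 against 7.12 in CD4 controls. H2-Ab1 averaged 8.95 on CD4 Foxp3-positive arrays against 10.00 in CD4 controls. Of 14 macrophage and monocyte markers 4 rose and 1 fell in CD8 cells, with sums of 800 to 1096 against 766 to 956 in controls, and 2 rose and 1 fell in CD4 cells, with sums of 638 to 747 against 792 to 864 in controls. Among those that rose in CD8 cells, Lyz2 averaged 6.37 against 4.55 in controls, Itgam 7.38 against 6.19 and C1qb 5.95 against 5.23. In CD4 cells Lyz2 averaged 5.51 against 4.45 in controls and Itgam 6.62 against 5.24, while Cd68 fell, at 7.38 against 8.57. Of 11 B cell markers 3 rose in CD8 cells, with sums of 9366 to 10204 against 4190 to 4971 in controls, and 2 rose and 2 fell in CD4 cells, with sums of 7029 to 7953 against 2203 to 2430 in controls. In each group no more than 3 of the 11 B cell markers lay above the median level. Ighm rose by 1.16 in CD8 and 1.82 in CD4 cells (0.69 and 0.35 averaged over all its clusters), and Cd79b by 1.10 and 0.77. Cd79a rose in CD8 cells, to 5.47 against 5.11 in CD8 controls. Ighm, the brightest of the list, made up most of each B cell sum. Ebf1 and Cd22 were lower in CD4 Foxp3-positive cells, at 4.06 and 4.97 against 4.70 and 5.57 in CD4 controls. Of 6 NK and γδ T cell markers 1 rose in CD8 cells, Klri2, and in CD4 cells Klri2 rose and Klrk1 fell, with sums of 787 to 918 in CD8 Foxp3-positive cells against 601 to 809 in CD8 controls, and of 292 to 316 for CD4 Foxp3-positive arrays against 199 to 232 for CD4 controls. Of 3 red cell and platelet markers 1 rose in CD8 cells, Pf4, and none in CD4 cells, with sums of 82.7 to 86.4 in CD8 Foxp3-positive cells against 85.5 to 91.8 in CD8 controls, and of 83.4 to 89.5 for CD4 Foxp3-positive arrays against 79.1 to 95.5 for CD4 controls. The part of other cells in the proteasome values was not tested.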

How the data were processed

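Total RNA (250 ng per sample) was measured on 12 Affymetrix GeneChip WT arrays, per the labels' protocols. Each deposited value is the log2 level of a transcript cluster, and the submitters' processing notes name RMA and Affymetrix Expression Console. RMA scales the arrays to each other, so a change of total RNA per cell does not show. Scanner files were not used here, the sources used here give neither tool versions nor a genome build, no batch is labelled, and the number of arrays limits the precision. Array medians over all clusters still lay between 5.23 and 5.33, and centring them was an alternative.

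Of 34365 clusters 23521 had 1 gene symbol in the platform annotation, 1814 had several and 9030 had none listed, and the last 2 kinds were left out. The brightest cluster stood for a gene. The 44 members had 46 clusters, 2 each for Psma5 and Psmc2. Close copies among the members can share probes.

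All 12 arrays entered 1 model with 4 group means (lmFit and eBayes of limma 3.58.1, R 4.3.3), with 8 residual and 4.56 prior degrees of freedom and 5 contrasts. Tests were two-sided with Benjamini-Hochberg adjustment over all 22180 genes and a threshold of 0.05. Alternatives were a block of replicates, a trended and robust eBayes, a filter on low values, the mean of a gene's clusters, the centred arrays, array weights, only the groups compared, and each array left out.

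Per-array values are given for the inducible set, the protease subunits it replaces and the members called. From each list of other genes the 3 with the largest called change in CD8 cells, in CD4 cells and in the difference of effects are named, and a few others to complete a count or a pair, chosen after their values were seen. The members and lists were chosen with earlier results of these data known. Promoter sequences, gene order and chromosomes come from RefSeq (GRCm38.p6).

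Samples were grouped by the labels. Same-letter replicates of CD8 cells correlated in their deviations from the group means at r of 0.05 to 0.14 and those of CD4 cells at r of -0.10 to 0.01, so the letters were not taken to pair the samples.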

Additional observations from a re-analysis of the deposited data

Results flagged for a closer look

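The effect of Foxp3-positive status (Foxp3-positive minus control, log2) differed between CD8 and CD4 cells by a test of the difference itself (limma, adjusted p under 0.05) for 4 members, where 6.01% of all genes were higher and 7.48% lower, and values here are the CD8 effect minus the CD4 effect. They were 0.51 for Psmb10, -0.57 for Psmd5, -0.38 for Psmd8 and -0.57 for Psme3. Among the other genes read beside the members, the assembly chaperones Psmg1 and Psmg2 had -0.77 and -0.71, and the ubiquitin shuttle Ubqln1 had -0.49. Class I genes had 0.50 for H2-K1, 0.56 for Nlrc5, 0.56 for Calr, 0.39 for Tap2, 0.73 for Tapbp and 0.82 for Tapbpl. Interferon genes had 1.40 for Ifng, 1.03 for Ifngr2, 1.28 for Irf1, 1.27 for Socs1, 1.04 for Irf9, 0.97 for Jak2 and 1.84 for Stat2. Ifng averaged 4.37 and 4.47 in CD8 and CD4 Foxp3-positive cells, below the median level of 5.60. Its value thus mainly reflects the levels of 6.64 and 8.13 in CD8 and CD4 controls. Proliferation genes had -0.74 for Mcm3, -0.76 for Mcm7, -0.76 for Mki67, -0.59 for Mcm5, -0.51 for Mcm6, -0.51 for Top2a and -0.67 for Rrm2. Markers of cell types had -2.22 for Cd80, -1.69 for Itgax, -0.66 for Ighm (0.34, in the opposite direction, with the mean of all its clusters) and 1.66 for Cd8b1. Without CD8 control replicate C the tests of Psmb10, H2-K1 and Tap2 were not called. Groups of 3 arrays are too small for a test of single outlying arrays.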

How the results depend on the processing

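Under 19 alternative settings 4121 member changes were recomputed, of which 3845 kept their direction and side of the threshold, 57 lost and 76 gained a call, 143 uncalled ones turned sign and 0 called ones reversed. The trended and robust eBayes and the filter on low values (which kept 11813 genes and 41 members) each called 9 others and 1 inducible member in CD8 cells (4 and 0 as reported), 5 others and 2 inducible members in CD4 cells (2 and 1), 5 others for the difference of effects (3), and 9 others and 2 inducible members between controls (5 and 1). Over all genes the filter called 19.5% higher and 23.2% lower in CD8 cells and 26.2% higher and 17.5% lower between controls, and the trended eBayes 10.2% and 11.8%, and 13.5% and 9.45%. In CD4 cells these shares were 24.7% and 19.3% with the filter and 13.2% and 11% with the trended eBayes. For the difference of effects they were 13.4% and 18.7% with the filter, and 6.95% and 9.3% with the trended eBayes. Array weights called 10 others and 1 inducible member in CD8 cells and 9 others between controls. Over all genes they called 10.5% higher and 12.6% lower in CD8 cells, and 13.5% and 9.52% between controls. Only the groups compared gave 2 others in CD8 cells, 0 inducible members in CD4 cells and 0 between controls, and cannot give the difference of effects. Centring the arrays gave 0 inducible members for the difference of effects and 0 between controls. The replicate block gave 0 inducible members for the difference of effects, and changed the count over all members to 2 there and to 7 between controls, with 4 in CD8 and 3 in CD4 cells as reported. Every CD8 array correlated best with the array of its own letter (6 of 6), a hint from the data and not the design, and none of 6 CD4 arrays did. Across lineages 5 of 6 control arrays and 4 of 6 Foxp3-positive arrays did. Leaving out 1 array gave 1 to 17 others in CD8 cells, 1 to 2 others and 0 to 1 inducible members in CD4 cells, 1 to 7 and 0 to 1 for the difference of effects, and 4 to 12 and 0 to 1 between controls. The counts over all genes ranged from 674 to 1145 between Foxp3-positive cells, against 1044 as reported. With the mean of all its clusters Ighm turned to 0.34 for the difference of effects and to -0.074 between controls. The causes were not tested. Levels near the array's background limit what can be seen for Psma5, Psma8 and Psmb11.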
